A study of Mus musculus with 24 samples.

Results

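The genes described here are 8 genes of coagulation, fibrinolysis and endothelial adhesion, Plat, Serpine2, Thbd, F3, Tfpi, Vwf, Icam1 and Vcam1. They were chosen by symbol from the deposited expression tables, and all 8 were found among the 14769 genes listed there in all. Of the 4 tables, 3 listed 8 of them, and the one that sets KO against WT in CL cortex listed 7, so Icam1 was not analysed in that comparison. Icam1 thus had a row only where a table held a PI group, the groups in which it is high, so its listing was not independent of its difference between PI and CL. The libraries were made from the cortex of male mice 3 to 4 months old that had undergone transient middle cerebral artery occlusion (tMCAo), in which a filament blocks a main artery of the forebrain, here for 1 h, with 1 day of reperfusion. The animals were wild type (WT) or knockout (KO) for ciRS-7, also named Cdr1as, a circular RNA that binds the microRNA miR-7, and the strain label of both genotypes was C57BL/6N-Cdr1asem1Nikr. Every animal was operated, and each gave a CL and a PI sample of cortex, marks that the labels do not spell out, so the 24 libraries formed 4 groups of 6, with CL and PI of WT and CL and PI of KO.

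Blood clotting starts when tissue factor, the product of F3, meets factor VII of the plasma, and tissue factor pathway inhibitor (Tfpi) stops that step. Thrombomodulin (Thbd) sits on endothelial cells and turns thrombin into an activator of the anticoagulant protein C, while von Willebrand factor (Vwf) tethers platelets to an injured vessel wall. Clots are dissolved by plasmin, which tissue plasminogen activator (Plat) makes from plasminogen, and the inhibitor protease nexin (Serpine2) blocks thrombin and plasminogen activators. Icam1 and Vcam1 encode the adhesion molecules of the vessel wall to which the integrins of leukocytes bind.

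The sequence before the transcription start was matched for 4 of the 8 genes (Serpine2, F3, Tfpi and Icam1) in RefSeq on GRCm38.p6. Those of Icam1 and F3 are shown because both hold the letters of an NF-kappaB-like motif, while in WT animals Icam1 had the largest difference between PI and CL of the 8 genes and F3 the smallest. Each run is the 250 bases before the start, 5′ to 3′ on the plus strand, at chr9:21015690-21015939 for Icam1 and chr3:121723287-121723536 for F3. Capitals mark matches on either strand to GGNNNTTCC, the NF-kappaB-like motif, or TGANTCA, the AP-1 motif.
Icam1: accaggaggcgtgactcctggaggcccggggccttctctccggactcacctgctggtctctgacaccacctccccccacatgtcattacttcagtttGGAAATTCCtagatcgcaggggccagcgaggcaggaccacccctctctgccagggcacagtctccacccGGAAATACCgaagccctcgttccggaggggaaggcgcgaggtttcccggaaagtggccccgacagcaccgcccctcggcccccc
F3: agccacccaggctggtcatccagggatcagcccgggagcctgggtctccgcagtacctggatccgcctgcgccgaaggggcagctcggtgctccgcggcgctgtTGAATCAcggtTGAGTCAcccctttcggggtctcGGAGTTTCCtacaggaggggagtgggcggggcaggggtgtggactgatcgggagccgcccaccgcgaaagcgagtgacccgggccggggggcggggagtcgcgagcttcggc
The Icam1 sequence held NF-kappaB-like matches whose first bases lay 153 and 84 bases before the start, the former reading as a match on both strands. The F3 sequence held 1 NF-kappaB-like match, at 112 bases, and AP-1 matches at 146 and 135 bases. Among 32851 RefSeq promoters of the same length, 15.7% held the NF-kappaB-like motif and 6.75% the AP-1 motif. No match to either was found in Serpine2 or Tfpi, and a match describes letters only. The GC box GGGCGG (32.7% of promoters) and the STAT-like motif TTCNNNGAA (7.02%) were also searched and are not marked. Serpine2, F3, Tfpi and Icam1 each held a GC box, and Icam1 held a STAT-like match at 42 bases.

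Expression was given as log2 CPM, the log2 of a gene's read count after scaling of the library total. The effective depth, read from the steps between low values, was 3.75 to 10.5 megareads per library (median 6.91), and the shallowest was CL KO replicate 6. A limit of 3 reads, which covers counting error only, came to 0.286 to 0.801 CPM. Within each group of 6, a gene's bottom 2 values were tied and so were its top 2, all drawn in to the quartiles. Hence the lowest and highest values given below are quartiles of a group, and the 4 inner values were recovered from them. Tests compared the trimmed means of those 4 values. A gene was called at a Benjamini-Hochberg adjusted p under 0.05 over all genes of the table. These tests treated CL and PI as independent groups and did not use their pairing within an animal. The animals behind the 4 values can also differ between CL and PI. As a check of the labels, Cdr1as stood at a trimmed mean of 11.83 log2 CPM in CL WT and 11.42 in PI WT. In the knockout its recovered values reached at most 0.148 CPM (CL) and 0.169 CPM (PI), under the read limit. All 8 neuronal and all 8 astrocyte markers of fixed lists were listed, which does not tell cortex from other brain tissue.

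Of the 8 genes, 3 (Thbd, Icam1 and Plat) were higher in PI than in CL cortex in WT animals, and the same 3 were higher in KO animals. None was called lower in either genotype. Over the whole table, the WT comparison called 10.6% of genes (5.2% higher and 5.4% lower) and the KO comparison 10% (5.11% higher and 4.94% lower). The recovered values of Thbd, Icam1 and Plat did not overlap between CL and PI in either genotype, which held for 26.3% of all genes in WT and 26.8% in KO. Limma on the deposited values, whose spread is understated, called 6 of the 8 genes in each genotype, beside 44.6% and 46.5% of all genes, and 45.6% and 47.1% with the animal as a block. The median log2 fold change of the 8 genes was 0.32 in WT and 0.31 in KO, beside 0.01 and -0.000678 over all genes. Among the 7 genes listed in all 4 tables, which leaves out Icam1, 2 were called higher in each genotype and the median was 0.18 in WT and 0.23 in KO. In bulk tissue, fewer cells of a type and less RNA per cell cannot be told apart.

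**Figure D1:**
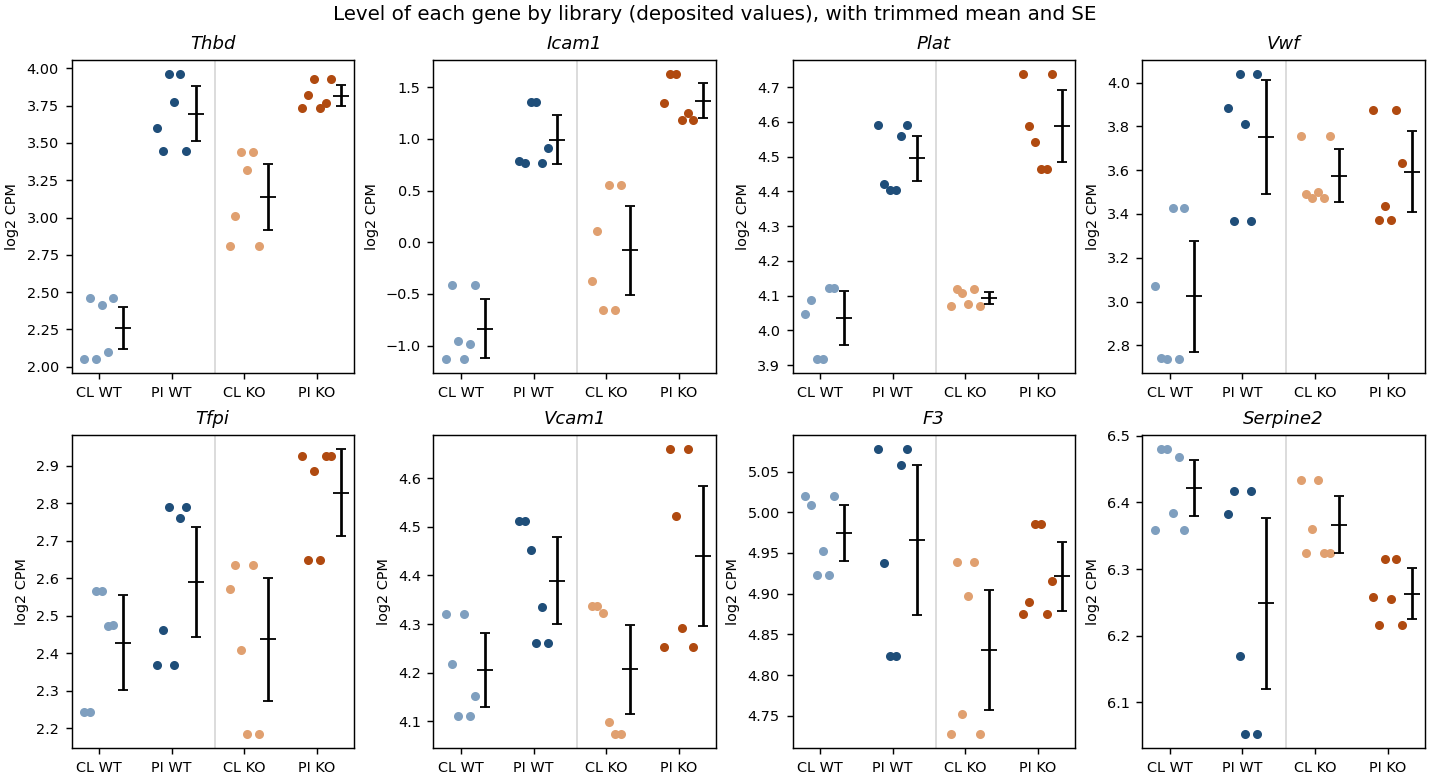
Each panel plots the deposited log2 CPM of 1 gene, with 1 point per library (6 per group) by group, and the trimmed mean with its standard error (SE). Thbd, Icam1 and Plat stand higher in both PI groups, whereas F3 lies between 4.73 and 5.08 in all 4 groups.

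F3 and Tfpi, the trigger of coagulation and its inhibitor, were not called in any comparison. F3 (chromosome 3, 121723537 to 121735048, plus strand, GRCm38) ran from 4.92 to 5.02 log2 CPM in CL WT (median 4.98) and from 4.82 to 5.08 in PI WT (median 5.0). In KO animals F3 ran from 4.73 to 4.94 in CL (median 4.82) and from 4.87 to 4.99 in PI (median 4.90). The groups overlapped in both genotypes, and no group stood apart. The PI minus CL difference of F3 was -0.01 in WT (SE 0.09, 95% interval -0.21 to 0.19, adjusted p = 0.972), and 0.09 in KO (SE 0.09, interval -0.10 to 0.29, adjusted p = 0.593).

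Tfpi (chromosome 2, 84432855 to 84476775, minus strand) ran from 2.25 to 2.57 log2 CPM in CL WT (median 2.47) and from 2.37 to 2.79 in PI WT (median 2.61). In KO animals it ran from 2.19 to 2.63 in CL (median 2.49) and from 2.65 to 2.93 in PI (median 2.91). The recovered values overlapped in both genotypes, and the highest group was PI KO. The difference was 0.16 in WT (SE 0.18, adjusted p = 0.655) and 0.39 in KO (SE 0.19, interval -0.02 to 0.80, adjusted p = 0.220). With the animal as a block, limma on the deposited values gave Tfpi in KO an adjusted p of 0.0063, and 0.00459 with no block.

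Thbd, which encodes the endothelial thrombin receptor that starts the protein C pathway, rose from CL to PI in both genotypes. The gene is a single exon at chromosome 2, 148404466 to 148408188, on the minus strand. The 6 CL WT libraries ran from 2.05 to 2.46 log2 CPM (median 2.26) and the 6 PI WT libraries from 3.44 to 3.96 (median 3.69). Thbd ran from 2.81 to 3.44 in CL KO (median 3.16) and from 3.73 to 3.93 in PI KO (median 3.79). CL WT was the lowest group, CL KO was intermediate, and the recovered values of neither CL group overlapped those of the PI group of its genotype. The rise was 2.71-fold in WT (log2 fold change 1.44, SE 0.19, 95% interval 1.03 to 1.85, adjusted p = 0.000544 by the limma-moderated trimmed-mean test with Benjamini-Hochberg adjustment). In KO the rise was 1.6-fold (0.68, SE 0.19, interval 0.28 to 1.08, adjusted p = 0.0372), and without a trend in the prior variance its adjusted p was 0.0976. In the deposited values Thbd was higher in the PI sample of 6 of 6 animals in each genotype. Because the outer values of a group had been replaced by its quartiles, such a tally is not known for the original values.

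Vwf, the platelet tether made by endothelium, was not called in either genotype. The gene lies at chromosome 6, 125546774 to 125686679, on the plus strand. It ran from 2.74 to 3.43 log2 CPM in CL WT (median 2.91) and from 3.37 to 4.04 in PI WT (median 3.85). In CL KO it ran from 3.47 to 3.76 (median 3.5) and in PI KO from 3.37 to 3.87 (median 3.54). The WT groups overlapped at their edges, and the PI KO range enclosed that of CL KO. The difference was 0.73 in WT (SE 0.27, interval 0.15 to 1.30, adjusted p = 0.108) and 0.02 in KO (SE 0.18, interval -0.37 to 0.40, adjusted p = 0.965), and the KO value turned to -0.02 when groups were centred on the median gene. With the animal as a block, limma on the deposited values gave Vwf in WT an adjusted p of 0.000271, and 0.00176 with no block. In the deposited values, with the same limit, Vwf was higher in PI in 6 of 6 WT animals and in 2 of 6 KO animals.

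**Figure D2:**
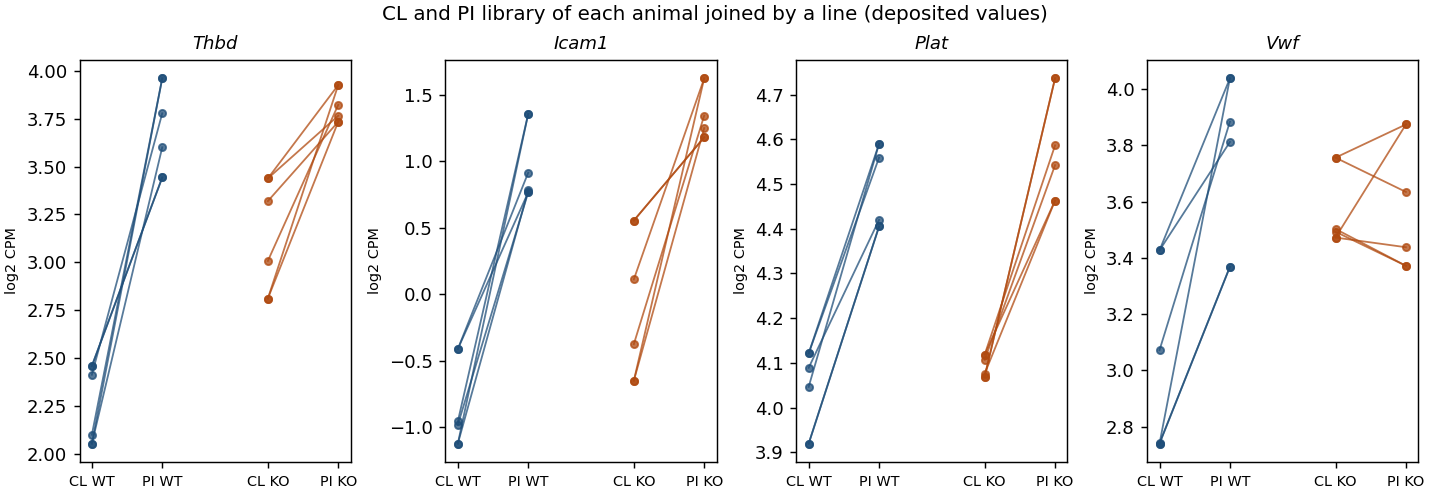
Lines join the CL and the PI library of each animal, in deposited log2 CPM, for each gene with 6 WT and 6 KO animals. In these values all lines of Thbd, Icam1 and Plat rise, while those of Vwf rise in 6 of 6 WT and 2 of 6 KO animals.

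On the side of fibrinolysis, Plat rose and Serpine2 was not called. Plat (chromosome 8, 22757727 to 22782844, plus strand) ran from 3.92 to 4.12 log2 CPM in CL WT (median 4.07) and from 4.41 to 4.59 in PI WT (median 4.49). In KO animals Plat ran from 4.07 to 4.12 in CL (median 4.09) and from 4.46 to 4.74 in PI (median 4.56). The recovered values of both PI groups lay above those of their CL groups. The log2 fold change of Plat was 0.46 in WT (SE 0.10, interval 0.24 to 0.68, adjusted p = 0.0107) and 0.50 in KO (SE 0.11, interval 0.27 to 0.72, adjusted p = 0.0111).

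Serpine2, which had the highest CPM of the 8 genes, lies at chromosome 1, 79794197 to 79861180, on the minus strand. It ran from 6.36 to 6.48 log2 CPM in CL WT (median 6.43) and from 6.05 to 6.42 in PI WT (median 6.28). In KO animals it ran from 6.32 to 6.43 in CL (median 6.34) and from 6.22 to 6.32 in PI (median 6.26). The recovered values overlapped between CL and PI in both genotypes, with the PI medians lower. The difference was -0.17 in WT (SE 0.11, adjusted p = 0.358) and -0.10 in KO (SE 0.07, adjusted p = 0.369). With the animal as a block, the adjusted p of Serpine2 was 0.0195 in WT and 0.0198 in KO by limma on the deposited values, and with no block it was 0.0448 and 0.0133.

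Of the adhesion genes, Icam1 rose and Vcam1 was not called. Icam1 (chromosome 9, 21015985 to 21028817, plus strand) ran from -1.13 to -0.41 log2 CPM in CL WT (median -0.97) and from 0.77 to 1.36 in PI WT (median 0.85). In KO animals Icam1 ran from -0.65 to 0.55 in CL (median -0.13) and from 1.18 to 1.62 in PI (median 1.30). The recovered values of CL and PI did not overlap in either genotype. The rise was 3.55-fold in WT (log2 fold change 1.83, SE 0.42, interval 0.91 to 2.74, adjusted p = 0.0148). In KO it was 2.72-fold (1.44, SE 0.42, interval 0.54 to 2.35, adjusted p = 0.0457), and without a trend in the prior variance its adjusted p was 0.0787. These levels rest on few reads, about 3.6 at the median of CL WT and 6.4 at that of CL KO, against 13 in PI WT and 16 in PI KO. On the scale of log2(CPM + 1) the differences were 0.93 in WT and 0.86 in KO. The span of Icam1 overlaps the antisense gene Gm47079, and the use of strand in the counting is not given in the sources used here.

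Vcam1 (chromosome 3, 116109949 to 116129688, minus strand) ran from 4.11 to 4.32 log2 CPM in CL WT (median 4.18) and from 4.26 to 4.51 in PI WT (median 4.39). In KO animals it ran from 4.07 to 4.34 in CL (median 4.21) and from 4.25 to 4.66 in PI (median 4.41). CL and PI overlapped in both genotypes, and in the deposited values 5 of 6 animals were higher in PI in each. The difference was 0.18 in WT (SE 0.11, adjusted p = 0.338) and 0.23 in KO (SE 0.14, interval -0.07 to 0.54, adjusted p = 0.339). With the animal as a block, limma on the deposited values gave Vcam1 adjusted p-values of 0.0172 in WT and 0.0252 in KO, and with no block 0.0190 and 0.0381. Its span overlaps the antisense gene Gm43109, to which the same limit applies.

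**Figure D3:**
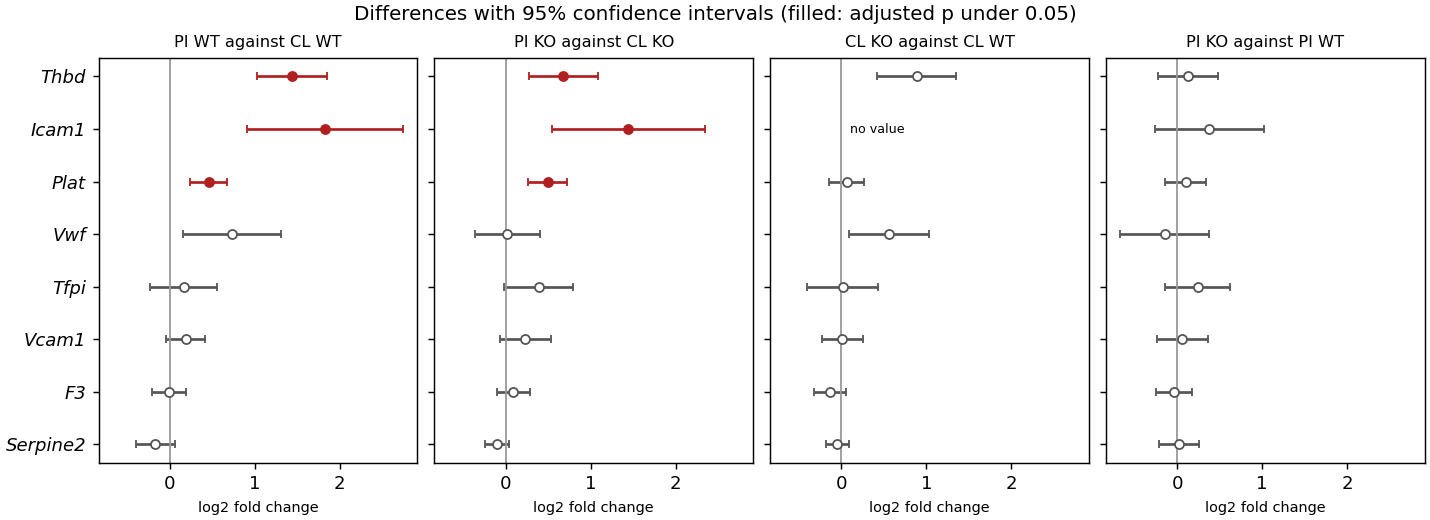
Points give the log2 fold change of each gene with its 95% confidence interval, for side within genotype and for genotype within side. Filled points have an adjusted p under 0.05. Filled points are seen for Thbd, Icam1 and Plat in PI against CL, and none is filled for genotype.

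Scaled by merged exon length, F3 had the highest median level in CL WT, 12.5 CPM per kb, followed by Serpine2 at 10.4. Plat followed at 2.69, Vcam1 at 2.05, Thbd at 1.28, Tfpi at 1.02, Vwf at 0.467 and Icam1 at 0.117 CPM per kb. In PI WT the level of Thbd was 3.46 CPM per kb, next to Plat at 3.6 and above Vcam1 at 2.37. Icam1 was still the lowest in PI WT, at 0.413 CPM per kb.

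Genotype was compared within PI and within CL. In PI cortex 0 of 8 genes were called between KO and WT by the trimmed-mean test, beside 0.0208% of all genes. At an unadjusted p under 0.05 there were also 0 (5.75% of all genes), and the deposited values tested by limma gave 0 (16.5%, or 12.5% with the replicate number as a block). The largest difference was that of Icam1, 0.38 (SE 0.29, interval -0.26 to 1.02, adjusted p = 0.889), and the difference of Thbd was 0.13 (interval -0.22 to 0.48). In CL cortex 0 of 7 genes were called, where 0.0279% of all genes were called, but Thbd and Vwf had an unadjusted p under 0.05, as did 5.73% of all genes. Both were called by limma on the deposited values, beside 16.1% of all genes, or 13% with the replicate number as a block.

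In CL cortex Thbd ran from 2.02 to 2.43 log2 CPM in WT (median 2.22) and from 2.79 to 3.41 in KO (median 3.14). The recovered KO values lay above the recovered WT values, which holds for 8.67% of all genes in that table in one direction or the other. The difference was 0.89 (SE 0.22, interval 0.42 to 1.35, unadjusted p = 0.00122, adjusted p = 0.488). Limma on the deposited values gave Thbd an adjusted p of 0.000793, and 0.00552 with the replicate number, which KO and WT animals share only by name, as a block. Vwf ran from 2.70 to 3.39 in CL WT (median 2.87) and from 3.45 to 3.73 in CL KO (median 3.47). The recovered values of Vwf overlapped, and the difference was 0.56 (SE 0.22, unadjusted p = 0.0230, adjusted p = 0.824). For Vwf limma on the deposited values gave an adjusted p of 0.0107, and 0.0082 with that block. The other 5 genes differed by -0.14 to 0.06. With CL KO replicate 6, the shallowest library, left out, limma on the deposited values gave differences of 0.95 for Thbd and 0.52 for Vwf. The remaining CL KO values had already been drawn in to quartiles set with that library, so its influence was not removed. The endothelial markers summed to 151 to 209 CPM in CL WT and 171 to 202 CPM in CL KO, ranges that overlapped. Of the 12 markers 10 were higher in CL KO (median log2 fold change 0.13, at most 0.65), beside 7054 of 14323 genes, and 0 were called. Their part in the differences of Thbd and Vwf was not tested.

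The effect of side was set against genotype by the interaction, the PI minus CL difference in KO less that in WT. None of the 8 genes was called by the trimmed-mean test, nor was any of the 14211 genes tested (0%). Thbd, at -0.76 (SE 0.29, interval -1.36 to -0.16, adjusted p = 0.992), was the 1 gene of the 8 with an unadjusted p under 0.05 (0.0155), which 4.55% of all genes had. The interaction of Vwf was -0.71 (SE 0.35, interval -1.44 to 0.03, unadjusted p = 0.0583, adjusted p = 0.992). When limma was run on the deposited values it called both genes and 13.7% of all genes (13.3% with the block), with adjusted p-values of 0.0039 for Thbd and 0.0178 for Vwf, or 0.0256 and 0.00834 when the animal was a block. The CL values enter both the genotype difference in CL and the interaction, so these are not separate observations. Of the 12 endothelial markers 2 had a positive interaction (median -0.13), beside 7090 of 14211 genes, and 0 were called.

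Other genes of these pathways were taken from 6 lists of 73 genes, of which 39 were listed in the tables of PI and CL and 34 were not analysed here. In WT 9 were called higher and 4 lower, and in KO 9 higher and 3 lower, beside 10.6% and 10% of all genes. The median log2 fold change of the 39 genes was 0.06 in WT and 0.12 in KO.

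Among the fibrinolysis genes, A2m, a broad protease inhibitor, rose by 2.85 in WT (adjusted p = 2.11e-06) and by 3.60 in KO (adjusted p = 3.73e-06) on the log2 scale. Anxa2, whose product binds plasminogen and Plat on the cell surface, rose by 1.25 in WT and 1.02 in KO. S100a10, the partner of Anxa2, rose by 0.46 in KO (adjusted p = 0.0426), and in WT its trimmed mean was 3.83 log2 CPM in CL and 4.05 in PI. Serpini1, which encodes neuroserpin, an inhibitor of Plat, fell by 0.34 in WT (adjusted p = 0.0206). In KO the trimmed mean of Serpini1 was 9.11 log2 CPM in CL and 8.87 in PI, a fall that was not called.

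Of the anticoagulant genes, Pros1, which encodes protein S, the cofactor of activated protein C, rose by 1.36 in WT (adjusted p = 2.11e-06) and 1.10 in KO (adjusted p = 0.000461). It was the 1 gene called of 5 listed in that list. F2rl2, a thrombin receptor, rose by 1.53 and 1.5, and F13a1, the subunit of the factor that cross-links fibrin, rose by 0.87 and 0.86. The other receptor listed, F2r, and the other 5 coagulation genes were not called.

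Among the integrins of leukocytes that bind Icam1, Itgam rose by 1.08 in WT and 0.95 in KO. Its partner Itgb2 rose by 1.34 in WT (adjusted p = 0.00182) and 1.08 in KO (adjusted p = 0.00614). Of 8 microglial markers 3 were called higher and 2 lower in WT, and 3 higher and 1 lower in KO. In the comparisons of PI with CL, 1 of 10 neutrophil and monocyte markers was listed. It differed by -0.04 in WT and -0.34 in KO and was not called. Which cells carried Itgam and Itgb2 was not tested. Itgb1, the other subunit of the Vcam1 receptor beside Itga4, rose by 0.23 in WT (adjusted p = 0.0230). In KO the trimmed mean of Itgb1 was 6.29 log2 CPM in CL and 6.53 in PI. Of 6 listed integrins 3 were called higher and 1 lower in WT, and 2 higher and 1 lower in KO. Itga4 fell by 0.38 in WT and 0.56 in KO. Of 12 genes listed under endothelial adhesion none was called higher, and Cd34 and Alcam were called lower. In WT 6 of the 12 were higher in PI (-0.97 to 0.79, median -0.02), beside 7580 of 14489 genes. In KO 7 were higher (-0.84 to 0.57, median 0.06), beside 7155 of 14338 genes. Whether their transcripts came from endothelium was not tested. Cd34 fell by 0.97 in WT (adjusted p = 0.000221) and 0.84 in KO (adjusted p = 0.000562), and Alcam by 0.42 and 0.30. Between KO and WT none of the listed pathway genes was called in PI (0 of 39, beside 0.0208% of all genes) or in CL (0 of 38, beside 0.0279%). In PI 1 had an unadjusted p under 0.05 (5.75% of all genes), and limma on the deposited values called 7 (16.5%). In CL these counts were 2 (5.73%) and 7 (16.1%). For the interaction 0 of 39 were called, with 3 at an unadjusted p under 0.05 (4.55%) and 7 by limma on the deposited values (13.7%).

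**Figure D4:**
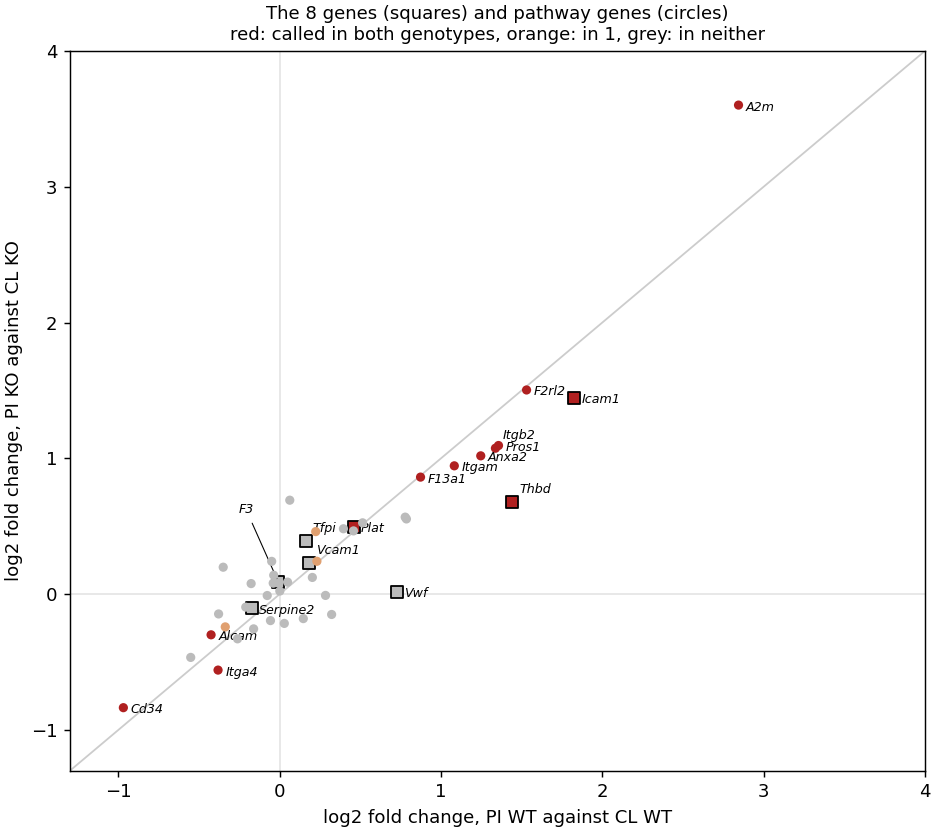
The x axis gives the log2 fold change of PI WT against CL WT and the y axis that of PI KO against CL KO, for the 8 genes (squares) and 38 of the pathway genes listed (circles), coloured by whether a gene was called in both genotypes, 1 or neither. A2m lies farthest to the upper right at 2.85 and 3.60, and Cd34 lies lowest at -0.97 and -0.84.

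Markers of the cell types that could carry these transcripts were summed in CPM from the deposited values. All 12 endothelial markers were listed, and their sum ran from 155 to 214 in CL WT against 149 to 211 in PI WT, and from 174 to 206 in CL KO against 168 to 180 in PI KO. The ranges overlapped between CL and PI in both genotypes. In WT 0 of 12 were called, and 9 of 12 were higher in PI, with a median log2 fold change of 0.10. There were 2 at an unadjusted p under 0.05 in WT, beside 3469 of 14489 genes. When limma took the deposited values it called 4 in WT, beside 44.6% of all genes. In KO 2 of 12 were called lower, beside 4.94% of all genes, and 6 of 12 were higher in PI. The sum of 4 of 5 red cell markers was 12.3 to 52.1 in CL WT against 30.0 to 50.4 in PI WT, and 10.8 to 61.8 in CL KO against 35.4 to 51.4 in PI KO. Reactive astrocyte markers moved with side, with 135 to 161 in CL WT against 467 to 538 in PI WT (8 of 8 listed and called higher), and 134 to 146 in CL KO against 453 to 630 in PI KO (7 of 8 listed, 7 called higher). Of these markers 5 were also listed in the table of CL groups alone, and the other 3 (Lcn2, Steap4 and Timp1) had rows only where a PI group was present, so their listing was not independent of the rise. The microglial sum was 169 to 179 in CL WT against 173 to 195 in PI WT, and 177 to 194 in CL KO against 189 to 227 in PI KO, with 3 of 8 markers called higher and 2 lower in WT, and 3 higher and 1 lower in KO. The neuronal sum was lower in PI with no overlap between these sums, 8050 to 8630 in CL WT against 7060 to 7790 in PI WT, and 7960 to 8330 in CL KO against 6860 to 7560 in PI KO. Of 8 neuronal markers 3 were higher in PI WT and 1 in PI KO. In WT 0 were called higher and 2 lower, and in KO 1 higher and 2 lower. The astrocyte sum was also lower in PI with no overlap, 7600 to 8010 in CL WT against 6600 to 7010 in PI WT (1 of 8 called higher, 4 lower), and 7630 to 8130 in CL KO against 6420 to 7100 in PI KO (1 higher, 1 lower). Values drawn in to the quartiles narrow such ranges, so a lack of overlap is not known for the original values. The oligodendrocyte sum was 2080 to 2270 in CL WT against 1430 to 2040 in PI WT, and 1660 to 2250 in CL KO against 1590 to 1810 in PI KO. Of 10 neutrophil and monocyte markers, 1 was listed in the tables of PI and CL. The part of these cells in the rise of Thbd, Icam1 and Plat was not tested.

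**Figure D5:**
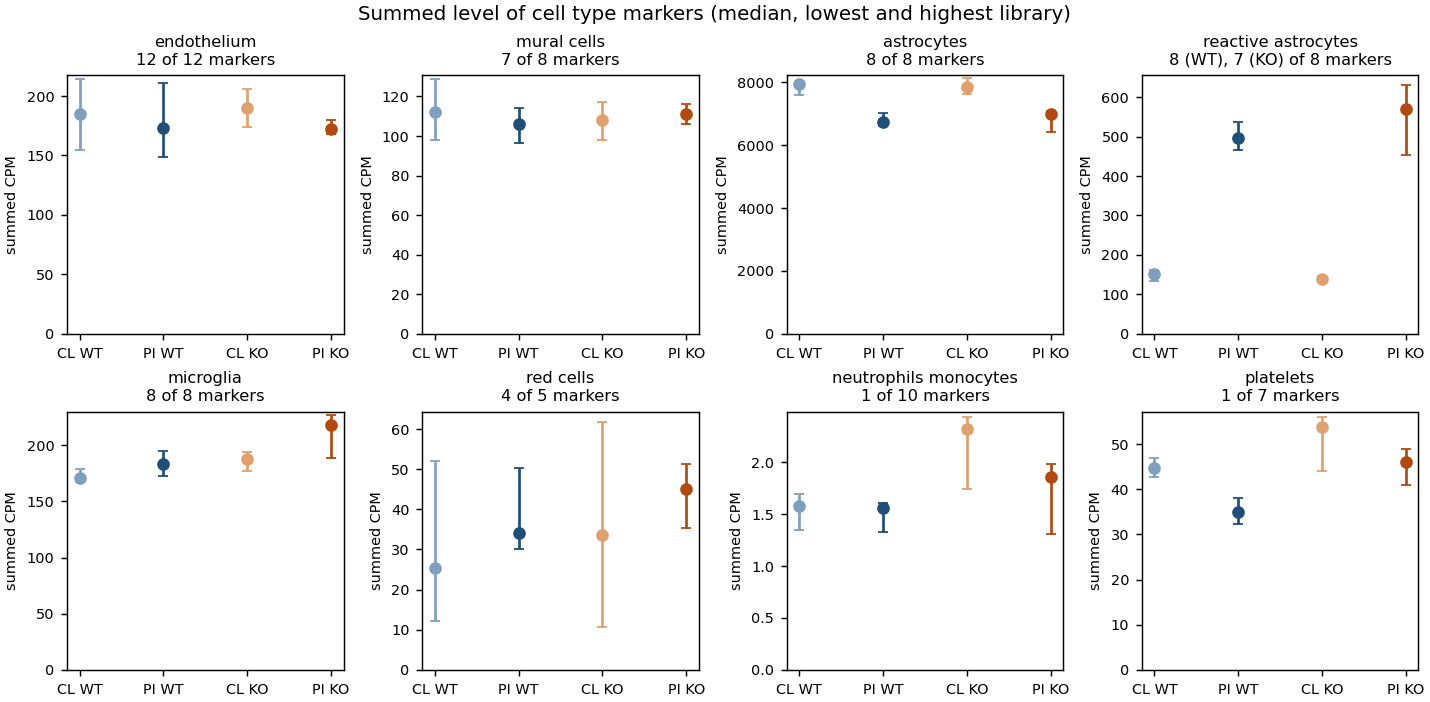
Each panel gives the summed CPM of the listed markers of 1 cell type by group, as the median with the lowest and highest library. The endothelial sums overlap between CL and PI, while the reactive astrocyte sums rise from at most 161 in CL WT to at least 467 in PI WT.

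The genes most like each of the 8 were sought by Pearson's r over the deposited values of the 24 libraries, with each gene centred in its group, among at least 13516 genes. The nearest to Thbd was Galnt2l (r = 0.828), to Icam1 Ptk7 (r = 0.837) and to Plat Sec24d (r = 0.807). The nearest to Vwf was Snrnp70 (r = 0.867), to Tfpi Mbd2 (r = 0.839) and to F3 Siglech (r = 0.840). The nearest to Serpine2 was Rbbp9 (r = 0.849), and to Vcam1 Aldh1a1 (r = 0.819). These are descriptions over libraries that share animals and scaling. Each r is the highest of at least 13516, so the pick alone raises it, and shared regulation was not tested. Between the 8 genes themselves r ran from -0.502 for Serpine2 and Vwf to 0.375 for Plat and F3.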

How the data were processed

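RNA from 24 cortex samples (6 per group) was depleted of ribosomal RNA and prepared with Lexogen's CORALL kit, per the labels' protocols. The deposited values are log2 CPM in 4 tables of 12 libraries, each scaled separately, so tests were made within a table. The build was mm10, per the submitters' processing notes; the aligner, counter and filters are not given in the sources used here. No column was left unused (0). The deposited values had been drawn in to group quartiles, a step that no label records, which lowers the spread and leaves the median. The 4 inner values per group were solved from this. Their trimmed means were compared with the Winsorized sum of squares as error (6 degrees of freedom, 12 for the interaction) through limma 3.58.1 in R 4.3.3 with a mean trend, two-sided, with Benjamini-Hochberg adjustment over all genes. The fit was tested on simulated data. SE is that of the moderated difference. The trimmed-mean test did not use the pairing of CL and PI within an animal.

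The members and lists were chosen with earlier results of these data known. Named genes were the 8 members, up to 8 called pathway genes per comparison with the smallest p, further called genes chosen after their values were seen (Anxa2, Alcam, F2rl2, F13a1, Itga4, Itgb1, Serpini1 and S100a10, in the genotype where they were outside that rule), and the genes nearest each member. A pathway gene that the rule names is not reported here. CL and PI libraries with 1 number come from 1 animal, per the labels. Their deviations from group means, in the deposited values, correlated with a median r of 0.0814 (WT) and 0.0838 (KO). Of 6 PI libraries, 5 in WT and 3 in KO correlated best with the CL library of their own animal. KO and WT animals share only a number. Of 6 KO libraries, 1 in PI and 3 in CL correlated best with the WT library of that number. Gene positions are from GENCODE M21 on GRCm38. Depth was read from the step between low values, of which 81.9% to 92.2% were whole within 0.1 read, where chance gives 20%. Alternatives were limma on the deposited values, with and without a block, no trend, a minimum mean of 1 CPM, log2(CPM + 1) and centring on the median gene.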

Additional observations from a re-analysis of the deposited data

How the results depend on the processing

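Of the member results under all alternatives, 228 kept their direction and side of the threshold, 26 became called, 2 lost the call and 1 changed sign. Limma on the deposited values, whose spread is understated because the values were drawn in to the quartiles, called 6 members in PI WT against CL WT (3 by the trimmed-mean test), 6 in PI KO against CL KO (3), 2 in CL KO against CL WT (0), 2 for the interaction (0) and 0 in PI KO against PI WT (0). With the replicate block, which pairs the samples of an animal for PI against CL, the counts were again 6, 6, 2, 2 and 0; KO and WT animals share only a number, and their deviations correlated with a median r of 0.0688 in PI and 0.0324 in CL. Without a trend in the prior variance 1 member was called in PI KO against CL KO, where Thbd (adjusted p = 0.0976) and Icam1 (0.0787) lost the call; the cause was not tested. Vwf in PI KO against CL KO was -0.0165 with groups centred on the median gene (adjusted p = 0.971), a step that moved the median gene by at most 0.04. An alternative chosen after seeing the data left out CL KO replicate 6, the shallowest library. Limma on the deposited values then called 5 members in PI KO against CL KO, 2 in CL KO against CL WT and 2 for the interaction. The quartiles of CL KO had been set with that library included, so these counts do not show the results without it. Over all genes, limma on the deposited values called 6459 in WT and 6666 in KO for PI against CL (1537 and 1440 by the trimmed-mean test), and no trend gave 1015 and 739. For KO against WT limma called 2388 in PI (3) and 2311 in CL (4), and 1940 for the interaction (0). With the block the counts over all genes were 6614 in WT and 6759 in KO for PI against CL, 1800 in PI and 1868 in CL for KO against WT, and 1895 for the interaction. Depth limits Icam1, with about 3.6 reads at the median of CL WT.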
